A study of Mus musculus with 10 samples.

Results

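The transcripts of 39 genes that sense DNA double-strand breaks, signal through the kinase ATM or repair the breaks were examined in O9-1, a cultured line of murine cranial neural crest origin. The genes were taken by symbol from a fixed list, and all 39 were found among the 43346 genes of the counts table. They fall into 4 damage kinases, 3 subunits of the break sensor complex, 6 genes of the chromatin response around a break, 15 genes of homologous recombination, 5 genes of end joining and 6 Fanconi anemia genes. Polyadenylated RNA was sequenced from 4 wildtype samples (WT/1 to WT/4), 3 clones with a CRISPR/Cas9 knockout (ko) of *Kat5* (Kat5/1 to Kat5/3) and 3 clones with a ko of *Ep400* (Ep400/1 to Ep400/3). Each ko was compared with wildtype, and both kos were compared with each other. All groups are the same untreated line, described as tetraploid, and each ko library is a separate clone. The clones were grown from single transfected and sorted cells, a step that is not described for the wildtype samples. In the comparisons with wildtype, the ko and this step cannot be told apart. The study's description gives frameshifts in all *Kat5* alleles of the Kat5 ko clones, whereas some *Ep400* alleles carry in-frame deletions at the ATP binding site rather than frameshifts. *Kat5* encodes an acetyltransferase, also named Tip60, and *Ep400* encodes an ATPase of the same chromatin remodeling complex.

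A double-strand break is bound by the MRN complex of Mre11, Rad50 and Nbn, which recruits and activates the kinase ATM. ATM phosphorylates the histone variant H2AX around the break, and Mdc1, Rnf8, Rnf168 and 53BP1 assemble there. The ends are then either joined directly, with the Ku proteins, DNA-PK and ligase 4, or resected and repaired from the sister chromatid by homologous recombination, which needs Brca1 and Brca2 and is largely restricted to the S and G2 phases. Kat5 protein is known to acetylate ATM and histone H4 at breaks, and the complex can incorporate histone variants there. Transcript counts, as measured here, do not report these protein activities.

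Between 30968945 and 48301792 reads per library were counted on genes, and mitochondrial genes took 0.893% to 3.24% of them, with the highest share in Ep400/3. *Kat5* had a log2-fold change of −1.40 (standard error 0.17, edgeR adjusted p = 0.0207) in the Kat5 ko clones and *Ep400* one of −1.45 (0.12, adjusted p = 0.0012) in the Ep400 ko clones, each with all clones below all wildtype libraries. Clones of a group differed from each other. Over all genes tested, 84 genes passed the same test between Kat5 ko and wildtype, but 2654 without Kat5/1 and 1 without WT/1 or without WT/4. Of 10 neural crest markers, 8 were over 1 CPM, the counts scaled to a fixed library total, in all wildtype libraries, and *Pax3* and *Msx2* were not. The summed level of this list was 986 to 1270 CPM in wildtype, 983 to 1150 CPM in Kat5 ko and 1250 to 2580 CPM in Ep400 ko cells. *Prrx1* made up most of it, with 651 to 952 CPM in wildtype and 2160 CPM in Ep400/3. Of the list, 3 genes were called higher in Ep400 ko (8% of all genes), *Pax3*, *Tfap2a* and *Snai2* (edgeR adjusted p = 0.00369, 0.023 and 0.0451). *Snai1*, *Ets1* and *Sox9* had log2-fold changes of −0.47, −0.57 and −0.40 there and did not pass the test. The 5 epithelial markers summed to 5.95 to 16.6 CPM in wildtype, 2.37 to 32.1 CPM in Kat5 ko and 0.539 to 1.06 CPM in Ep400 ko cells, and none of them was at 0 throughout a group. The highest Kat5 ko sum rested on *Cldn6*, at 31.3 CPM in Kat5/2, while *Epcam*, *Krt8* and *Krt18* were below all wildtype libraries in every Kat5 ko clone (log2-fold changes −1.55, −2.62 and −3.15, with edgeR adjusted p of 0.16, 0.0805 and 0.165). In Ep400 ko, *Krt8*, *Krt18* and *Cldn6* were called lower (edgeR adjusted p = 0.0217, 0.0186 and 0.00626), as were 5.72% of all genes. *Epcam* overlapped wildtype there (log2-fold change −0.76, edgeR adjusted p = 0.325), and *Cdh1* was too low to be tested. The lists for endothelial, blood and neuronal cells stayed at or below 7.87 CPM in every library, with *Kdr* (wildtype), *Emcn* (both kos), *Elavl3* (Kat5 ko), *Cd3e* and *Rbfox3* (all groups) at 0. From these lists, *Stmn2* was called higher and *Pecam1* lower in Ep400 ko (edgeR adjusted p = 0.0493 and 0.0236). The part of these differences in the levels of the repair genes was not tested, and in bulk RNA fewer cells of a kind and less RNA per cell cannot be told apart.

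All 39 genes were expressed in wildtype cells and passed the filter on low counts in every comparison. Normalized counts, which are the reads scaled to a common library size, were divided by the exon length in kilobases to compare genes. This length covers all annotated exons of a gene, such as 23.629 kb for *Atr* and 11.703 kb for *Rnf8*, and the order of genes depends on it. On this scale of level per kilobase, *H2afx*, the gene of histone H2AX, stood highest with 3995 ± 945 (SD, n = 4). It was followed by *Xrcc5* (2106 ± 395), which encodes the large Ku subunit, *Parp1* (1620 ± 198), a sensor of DNA strand breaks, and *Xrcc6* (786.5 ± 77.4), which encodes the small Ku subunit. The 15 genes of homologous recombination lay lower, between 47.3 for *Palb2* and 294 for *Rad51d*. The kinases ranged from 65.7 for *Atr* to 207 for *Chek2*, and *Atm* had 107 ± 24 (SD, n = 4). *Chek1*, with 198, and *Chek2* were within the spread of each other per kilobase. Without division by length, *Atr* was instead the highest of the 4 kinases, with 1553 normalized counts, and *Chek2* the lowest, with 622. The catalytic subunit of DNA-PK, *Prkdc*, had 64.9 ± 14.8 (SD, n = 4), far below its Ku partners. The ubiquitin ligase gene *Rnf8* was lowest, at 13.9, and also without division by length, at 163 normalized counts.

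In the Ep400 ko clones, 4 of the 39 genes passed the quasi-likelihood test of edgeR with an adjusted p up to 0.05, and are referred to as called, against 13.7% of all 13836 genes tested. All 4 were lower than in wildtype. These were *Xrcc6*, *Rad51c*, *Rad51d* and *Mre11a*, and they come from end joining, homologous recombination and the break sensor. Over all genes, 5.72% were called lower and 8% higher. None of the 39 was called higher by edgeR or DESeq2. The latter called 6 lower, but 3177 genes in all. At an unadjusted p of at most 0.05 there were 11 lower genes and 1 higher gene (14.2% and 18% of all genes). Of the 39, 33 had a log2-fold change below 0, against 46.9% of all genes, and their median was −0.37, against 0.043 over all genes tested. In 7 of the 39 all clones were below all wildtype libraries (14.1% of all genes), and in none were all above (16.1%). When the change also had to reach 1 on the log2 scale and the mean had to exceed 100 counts, *Xrcc6* was left, against 2.3% of all genes lower and 4.12% higher. The count of 4 depended on single libraries. It was 1, *Xrcc6*, without WT/1, WT/2, WT/4 or Ep400/2, 3 without WT/3 or Ep400/3, and 7 without Ep400/1. The count over all genes also changed with the library left out.

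**Figure D1:**
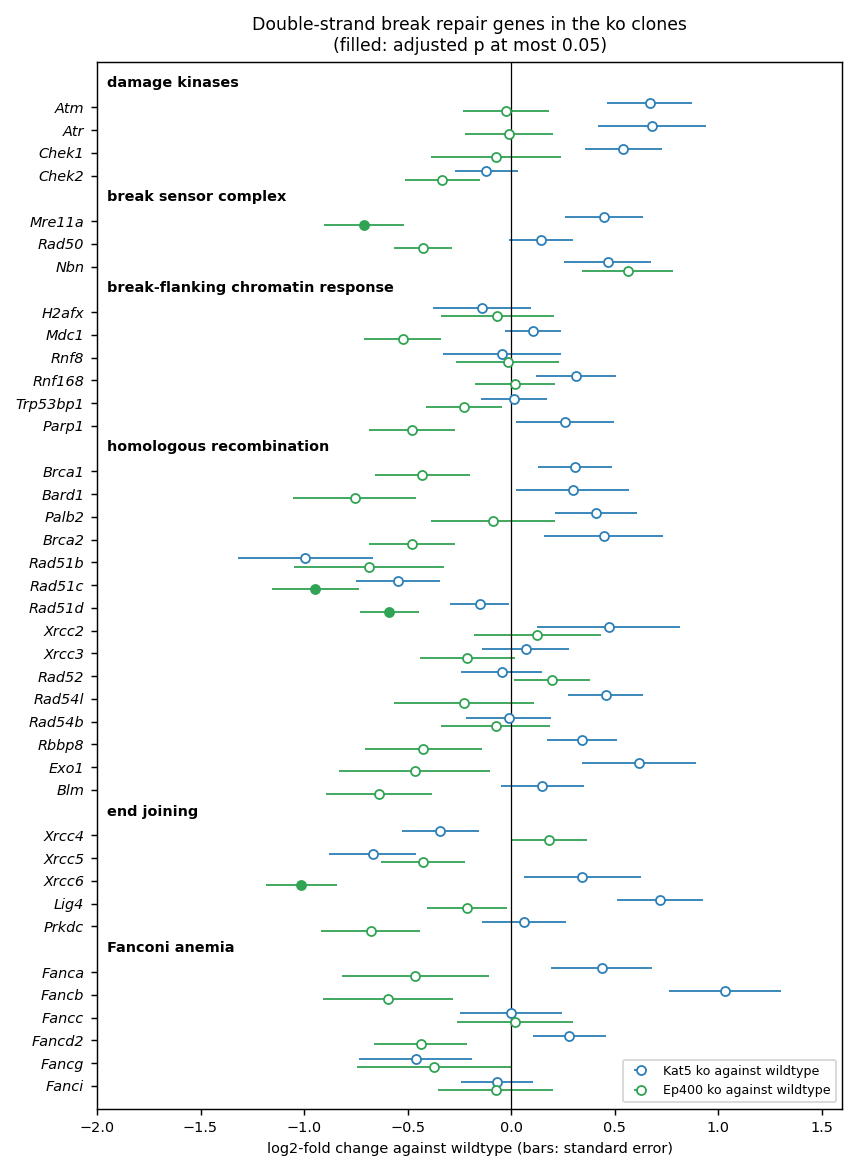
Log2-fold change of each of the 39 genes against wildtype (horizontal axis) in the Kat5 ko clones (blue) and the Ep400 ko clones (green), with the standard error as bars and genes grouped by role. Filled points passed an adjusted p of 0.05 and are found for *Mre11a*, *Rad51c*, *Rad51d* and *Xrcc6* in Ep400 ko, while no gene is filled for Kat5 ko.

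*Xrcc6* (ENSMUSG00000022471, GRCm38 chromosome 15 from 81987835 to 82040085) encodes Ku70, which forms with Ku80 the ring that binds DNA ends. Its normalized counts were 3117, 3964, 3491 and 3510 in WT/1 to WT/4 and 2150, 1656 and 1427 in Ep400/1 to Ep400/3. All Ep400 ko clones lay below the lowest wildtype library. The log2-fold change was −1.01 (standard error 0.17, edgeR adjusted p = 0.0092), a level of 49.5% of wildtype. It kept an adjusted p of at most 0.05 with each library left out, but missed it in a single fit of all 10 libraries (adjusted p = 0.0539). The 462 genes of chromosome 15 were shifted together by −0.12, −0.10 and −0.14 (median, log2) in Ep400/1 to Ep400/3, and by −0.35 in Kat5/1. The Kat5 ko clones spread on both sides of wildtype, with 2331 in Kat5/1 and 6004 and 5395 in Kat5/2 and Kat5/3, so that their log2-fold change of 0.34 (0.28, edgeR adjusted p = 0.506) was within the spread of the clones.

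The partner gene *Xrcc5*, which encodes Ku80, had 4014 ± 938 normalized counts (SD, n = 3) in Ep400 ko and 5380 ± 1010 (SD, n = 4) in wildtype cells, and did not pass the test (log2-fold change −0.42, standard error 0.20, edgeR adjusted p = 0.187). The ratio of *Xrcc6* to *Xrcc5* per kilobase was looked at after these values had been seen, and is given without a test. It was 0.375, 0.461, 0.289 and 0.402 in the wildtype libraries, 0.531, 0.847 and 0.804 in the Kat5 ko clones, and 0.323, 0.188 and 0.255 in the Ep400 ko clones. The Kat5 ko clones lay above all other libraries, and Ep400/1 overlapped wildtype. Per kilobase, *Xrcc6* stood below *Xrcc5* in all 10 libraries. This order and the size of the ratio depend on the lengths of all annotated exons, 4.476 kb for *Xrcc6* and 2.555 kb for *Xrcc5*. Without division by length, the Kat5 ko mean was higher for *Xrcc6*, with 4577 normalized counts (range 2331 to 6004) against 3459 (2506 to 4044). The means of *Xrcc6* and *Xrcc5* were 3520 and 5380 in wildtype, and 1744 and 4014 in Ep400 ko cells.

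*Prkdc*, the kinase recruited by Ku, had 900, 737, 675 and 1112 normalized counts in wildtype and 505, 422 and 677 in Ep400 ko cells. Ep400/3 was just above the lowest wildtype library, the other two clones were below, and the log2-fold change of −0.68 did not pass the test (standard error 0.24, edgeR adjusted p = 0.0923). Among the Kat5 ko clones, with 803, 1010 and 928, all values were within the wildtype range. *Lig4* and *Xrcc4*, whose products seal the joined ends, had log2-fold changes of −0.21 and 0.18 in Ep400 ko and did not pass the test.

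Among the 15 genes of homologous recombination, 2 were called lower in the Ep400 ko clones (5.72% of all genes), *Rad51c* and *Rad51d*. Their products act together in the repair of resected DNA. *Rad51c* (ENSMUSG00000007646, GRCm38 chromosome 11 from 87376645 to 87404954) had 454, 540, 501 and 512 normalized counts in wildtype, and 311, 213 and 259 in the Ep400 ko clones, without overlap. Its log2-fold change was −0.94 (standard error 0.21, edgeR adjusted p = 0.0227). The Kat5 ko clones had 287, 330 and 435, also all below wildtype, with a log2-fold change of −0.55 that did not pass the test (0.20, edgeR adjusted p = 0.167).

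*Rad51d* (ENSMUSG00000018841, GRCm38 chromosome 11 from 82876434 to 82890614) had 1147, 1133, 1004 and 1089 normalized counts in wildtype and 685, 687 and 809 in the Ep400 ko clones, again without overlap. The log2-fold change was −0.59 (standard error 0.14, edgeR adjusted p = 0.0303). Both genes lie on chromosome 11, whose 953 genes were shifted together in the Ep400 ko clones, by a median of −0.19, −0.20 and −0.25 on the log2 scale relative to the wildtype mean. With offsets for such chromosome shifts in the model, *Rad51d* had a log2-fold change of −0.38 and no longer passed the test (edgeR adjusted p = 0.122), while *Rad51c*, *Xrcc6* and *Mre11a* did. *Rad51b*, which encodes a partner of both, had 301.5 ± 85.5 normalized counts (SD, n = 4) in wildtype, 154.9 ± 51.7 (SD, n = 3) in Kat5 ko and 187.6 ± 84.4 (SD, n = 3) in Ep400 ko cells, and passed the edgeR test in neither comparison with wildtype, while DESeq2 called it lower in Kat5 ko. *Xrcc2* and *Xrcc3*, which act in the same step, had log2-fold changes of 0.13 and −0.21 in Ep400 ko.

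*Brca1*, which directs breaks to homologous recombination, had 1739, 1624, 1757 and 1994 normalized counts in wildtype and 1739, 1376 and 852 in the Ep400 ko clones. Ep400/1 was within the wildtype range and Ep400/3 far below it, and the log2-fold change of −0.43 did not pass the test (standard error 0.23, edgeR adjusted p = 0.231). Its partner *Bard1* and the loader *Brca2* had log2-fold changes of −0.75 and −0.48 (edgeR adjusted p = 0.121 and 0.149). The helicase gene *Blm* (−0.64), the nuclease gene *Exo1* (−0.47) and *Rbbp8* (−0.42), all of which act in end resection, did not pass the test either. Over the 15 genes, 13 had log2-fold changes below 0 and the median was −0.43. In 4 of the 15, *Rad51c*, *Rad51d*, *Brca2* and *Blm*, all Ep400 ko clones were below all wildtype libraries (14.1% of all genes).

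*Mre11a* (ENSMUSG00000031928, GRCm38 chromosome 9 from 14784654 to 14837123) encodes the nuclease of the MRN complex. It had 2579, 2808, 2449 and 2910 normalized counts in wildtype and 2165, 1503 and 1267 in the Ep400 ko clones, all below wildtype. The log2-fold change was −0.71 (standard error 0.19, edgeR adjusted p = 0.0442). It still passed the test when Ep400/1 was left out, with a log2-fold change of −0.96, and missed it when any other library was left out, with values of −0.76 to −0.56. The genes of chromosome 9 were shifted the other way, by 0.16, 0.054 and 0.12 in the Ep400 ko clones.

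Of the other subunits of the complex, *Rad50* was lower in all Ep400 ko clones, as *Mre11a* was, while *Nbn* went the other way. *Rad50*, the coiled-coil ATPase, had 2347, 2329, 2708 and 2698 normalized counts in wildtype and 2087, 1889 and 1657 in the Ep400 ko clones, without overlap. The log2-fold change of −0.43 did not pass the test (standard error 0.14, edgeR adjusted p = 0.0741). Of the 3 genes of the complex, edgeR called 1 lower (5.72% of all genes), limma-voom 1, and DESeq2, which called more genes in all, 2. *Nbn*, which links the complex to ATM, had 738, 899, 594 and 873 in wildtype and 1469, 1087 and 885 in the Ep400 ko clones, where only Ep400/3 was within the wildtype range. Its log2-fold change of 0.56 was the highest of the 39 genes in Ep400 ko and did not pass the test (0.22, edgeR adjusted p = 0.118).

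None of the 4 kinases passed the test in Ep400 ko, with edgeR, DESeq2 or limma-voom, and none had an unadjusted p of at most 0.05. *Atm* (ENSMUSG00000034218, GRCm38 chromosome 9 from 53439149 to 53536740), the main kinase of the response to double-strand breaks, had 1131, 1002, 844 and 1432 normalized counts in wildtype and 1271, 920 and 1057 in the Ep400 ko clones, all within the wildtype range. The log2-fold change was −0.026 (standard error 0.21, edgeR adjusted p = 0.944), with an interval of ±1.96 standard errors from −0.44 to 0.38. *Atr*, the kinase of replication stress, and its target *Chek1* had log2-fold changes of −0.011 and −0.075, and *Chek2*, the target of ATM, one of −0.33 (edgeR adjusted p = 0.239).

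Of the 6 genes of the chromatin response, none passed the test in Ep400 ko with edgeR, DESeq2 or limma-voom, and 2 had an unadjusted p of at most 0.05. *H2afx* had 6316, 6122, 6105 and 3571 normalized counts in wildtype, with WT/4 far below the others, and 7295, 4811 and 3734 in the Ep400 ko clones. The log2-fold change was −0.067 (standard error 0.27, edgeR adjusted p = 0.887, interval from −0.60 to 0.47). The gene has a poly-A tailed and a tail-less histone transcript, of which poly-A selection can show the former. *Parp1* had 7953, 9769, 9099 and 7483 normalized counts in wildtype and 7974, 5949 and 4546 in the Ep400 ko clones, with Ep400/1 within the wildtype range, and a log2-fold change of −0.48 (0.21, edgeR adjusted p = 0.148). *Mdc1*, the reader of phosphorylated H2AX, had −0.52 (edgeR adjusted p = 0.0945), *Trp53bp1*, which encodes 53BP1, −0.23, and the ligases *Rnf8* and *Rnf168* −0.017 and 0.018.

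The Fanconi anemia genes, whose products unhook DNA crosslinks and feed into homologous recombination, had log2-fold changes of −0.59 for *Fancb* to 0.019 for *Fancc* in Ep400 ko, and none passed the test with edgeR, DESeq2 or limma-voom, or had an unadjusted p of at most 0.05. In 5 of these 6 genes Ep400/3 had the lowest value of all 10 libraries.

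The promoters of the called genes are shown because *Xrcc6*, *Rad51c* and *Mre11a* fell together in Ep400 ko, and because *Mre11a* and *Fancb* differed between the kos. Each line gives the 250 bases before a RefSeq transcription start in GRCm38.p6, read 5′ to 3′ on the strand of the gene. Capitals mark the letters TTTCCCGC or TTTGGCGC, a form of the E2F element, and CCAAT, the CCAAT box, on either strand. *Rad51c* has separate starts, and *Rad51d* is named only. The start behind the *Xrcc6* window, 82016369, lies inside the gene span given above, which begins at 81987835.
Xrcc6, chr15:82016119-82016368, plus strand: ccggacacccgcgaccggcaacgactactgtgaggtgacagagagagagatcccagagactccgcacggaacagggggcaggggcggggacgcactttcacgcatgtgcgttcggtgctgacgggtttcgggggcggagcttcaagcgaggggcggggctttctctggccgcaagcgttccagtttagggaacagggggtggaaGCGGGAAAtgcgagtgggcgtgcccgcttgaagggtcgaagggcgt
Mre11a, chr9:14784404-14784653, plus strand: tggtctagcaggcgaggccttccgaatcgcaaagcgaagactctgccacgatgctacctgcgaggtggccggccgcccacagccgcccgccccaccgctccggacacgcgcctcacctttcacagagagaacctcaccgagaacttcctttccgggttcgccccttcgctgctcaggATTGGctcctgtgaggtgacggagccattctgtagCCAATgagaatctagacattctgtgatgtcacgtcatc
Rad51c, downstream start, chr11:87404507-87404756, minus strand: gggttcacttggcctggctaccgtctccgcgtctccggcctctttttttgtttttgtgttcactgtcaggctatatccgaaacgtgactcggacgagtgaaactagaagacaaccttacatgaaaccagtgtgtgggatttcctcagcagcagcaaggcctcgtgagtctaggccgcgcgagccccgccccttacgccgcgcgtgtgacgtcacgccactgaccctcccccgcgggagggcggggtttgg
Rad51c, upstream start, chr11:87404955-87405204, minus strand: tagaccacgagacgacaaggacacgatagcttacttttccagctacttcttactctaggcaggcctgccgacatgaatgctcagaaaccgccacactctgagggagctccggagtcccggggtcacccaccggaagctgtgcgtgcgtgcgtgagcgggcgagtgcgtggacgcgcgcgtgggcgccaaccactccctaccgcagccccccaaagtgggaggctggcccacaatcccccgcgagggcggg
Fancb, chrX:164980342-164980591, plus strand: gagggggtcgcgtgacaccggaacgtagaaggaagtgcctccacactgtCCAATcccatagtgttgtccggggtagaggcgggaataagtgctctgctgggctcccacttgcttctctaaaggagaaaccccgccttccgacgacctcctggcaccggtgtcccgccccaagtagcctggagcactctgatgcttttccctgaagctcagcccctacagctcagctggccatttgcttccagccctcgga
An E2F element stood in the *Xrcc6* window and CCAAT boxes in those of *Mre11a* and *Fancb*, while both *Rad51c* windows held none of the motifs searched. RefSeq windows were found for 29 of the 39 genes, with 33 windows in all. The E2F element was in 6 of the 33 (18.2%), of *Bard1*, *Brca2*, *Chek2*, *Fancg*, *Mdc1* and *Xrcc6*, against 2.4% of 12477 windows of all tested genes. The CCAAT box was in 48.5% against 35.5%. The cell cycle element TTTGAA was in 6.06% against 10.4%, and the ETS element CCGGAAGT in 9.09% against 5.79%. Matches of 2 motifs overlapped in 1 of the 33 windows. These are matches of letters, without a test, and say nothing on the binding of a factor.

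In the Kat5 ko clones, none of the 39 genes was called against wildtype by edgeR, compared with 0.625% of all 13434 genes tested. At an unadjusted p of at most 0.05 there were 7 higher and 3 lower genes (10.7% and 11.6% of all genes). DESeq2 called 3 of the 39, *Fancb* and *Lig4* higher and *Rad51b* lower, but 1382 genes in all, and limma-voom called 0 of the 39. The median log2-fold change was 0.26, and 27 of the 39 genes were above 0, against a median of 3.24e-05 and 50% of all genes. In 5 genes all clones were above wildtype (9.67% of all genes) and in 3 all were below (10.2%). Without Kat5/1, 11 genes were called, namely *Exo1*, *Parp1*, *Fancb*, *Rad54l*, *Lig4*, *Mre11a*, *Chek1*, *Atm*, *Atr*, *Brca1* and *Xrcc6*. Over all genes, 2654 were then called, against 84 with every library kept and 1 without WT/1 or without WT/4.

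The genes with values above wildtype in all Kat5 ko clones were *Atm*, *Palb2*, *Rbbp8*, *Lig4* and *Fancb*. *Fancb* (ENSMUSG00000047757, GRCm38 chromosome X from 164980592 to 164997272), a subunit of the Fanconi anemia core complex, had 412, 421, 317 and 535 normalized counts in wildtype and 551, 1041 and 1054 in the Kat5 ko clones. Kat5/1 was just above WT/4, and the other two clones were well above, with a log2-fold change of 1.03 that did not pass the test (standard error 0.27, edgeR adjusted p = 0.0917). *Atm* had 1459, 1988 and 1927 normalized counts in the Kat5 ko clones, with Kat5/1 close to the highest wildtype library. Its log2-fold change of 0.67 did not pass the test (0.21, edgeR adjusted p = 0.12), with an interval from 0.27 to 1.07. *Lig4* had a log2-fold change of 0.72 (0.21, edgeR adjusted p = 0.107).

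Below wildtype in all Kat5 ko clones were *Rad51b*, *Rad51c* and *Xrcc5*. *Rad51b* had a log2-fold change of −0.99 (standard error 0.33, edgeR adjusted p = 0.139) and *Xrcc5* one of −0.67 (0.21, edgeR adjusted p = 0.125). *Mre11a* had 2651, 4628 and 3954 normalized counts in the Kat5 ko clones, of which Kat5/1 was within the wildtype range, and a log2-fold change of 0.45 (0.19, edgeR adjusted p = 0.209). *H2afx*, with 6396, 4792 and 4154, *Parp1*, with 6409, 13137 and 12012, and *Brca1*, with 1657, 2577 and 2526, overlapped wildtype and had log2-fold changes of −0.14, 0.26 and 0.31. *Rad50* and *Rad51d* had 0.15 and −0.15.

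**Figure D2:**
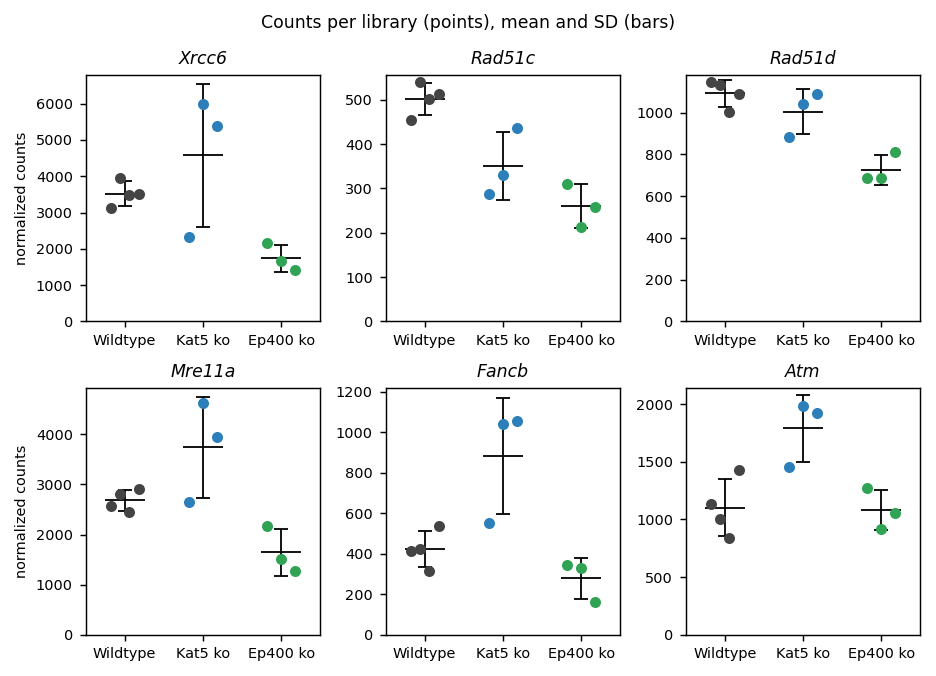
Normalized counts (vertical axis, from 0) of 6 genes in each library, as points for wildtype, Kat5 ko and Ep400 ko, with the mean and SD as bars. *Xrcc6*, *Rad51c*, *Rad51d* and *Mre11a* show the Ep400 ko clones below all wildtype libraries, and *Xrcc6*, *Mre11a* and *Fancb* show a wide spread of the Kat5 ko clones, with Kat5/1 as the lowest.

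As both kos were compared with the same wildtype libraries, the difference between them was tested directly. Of the 39 genes, 2 were called, against 7.05% of 13587 genes, and 0 with the size factors of DESeq2 or with library size alone in place of the TMM scaling. Both were lower in Ep400 ko than in Kat5 ko cells (2.83% of all genes), and none was higher by edgeR (4.22%) or DESeq2. The latter called 6 lower, but 3021 genes in all. At an unadjusted p of at most 0.05 there were 16 lower and 0 higher genes (16% and 16.3% of all genes). Both changes exceeded 1 on the log2 scale, with means over 100 counts (2.3% of all genes lower and 3.06% higher). *Fancb* had 346, 329 and 163 normalized counts in the Ep400 ko clones, all below the lowest Kat5 ko clone at 551, and a log2-fold change of −1.67 (standard error 0.40, edgeR adjusted p = 0.0488). *Mre11a* had one of −1.20 (0.29, edgeR adjusted p = 0.05, just within the threshold), with the highest Ep400 ko clone at 2165 and the lowest Kat5 ko clone at 2651. With chromosome offsets *Fancb* missed the threshold (log2-fold change −1.47, edgeR adjusted p = 0.0683), and the genes of chromosome X were shifted by −0.33 in Ep400/1.

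*Xrcc6*, in which the clones did not overlap either, missed the threshold (log2-fold change −1.41, standard error 0.36, edgeR adjusted p = 0.0555, but 0.0471 with chromosome offsets), as did *Atm* (−0.75, 0.22, adjusted p = 0.0693) and *Lig4* (−0.98, 0.28, adjusted p = 0.0662). The median over the 39 genes was −0.62, 32 were below 0 (49.7% of all genes), and in 11 genes all Ep400 ko clones were below all Kat5 ko clones (18% of all genes). In 1 gene, *Xrcc4*, all were above (20.5% of all genes). *Rad51c* and *Rad51d* had log2-fold changes of −0.45 and −0.49, and *H2afx* one of 0.024, with intervals of ±1.96 standard errors that reached from −0.57 to 0.61 for *H2afx*. Both calls depended on the libraries, with 8 genes called without Kat5/1 and 0 when any one of the other clones was left out. The count over all genes also changed with the clone left out.

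The values of single clones show how the groups were made up. Ep400/3 had the lowest of all 10 values in 24 of the 39 genes (61.5%), and in 20.7% of all genes over the filter. Kat5/2 had the highest in 20 of the 39 (51.3%), and in 16.9% of all genes. Ep400/1 was below the wildtype range in 12 and above it in 10 of the 39 genes, Ep400/2 in 22 and 3, and Ep400/3 in 28 and 2. Kat5/1 was below in 11 and above in 11, Kat5/2 in 5 and 24, and Kat5/3 in 7 and 20. Over all genes, these shares were 27.7% to 34.3% below and 27.8% to 37.4% above. Ep400/1 and Kat5/1 were the clones with about as many genes above as below.

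**Figure D3:**
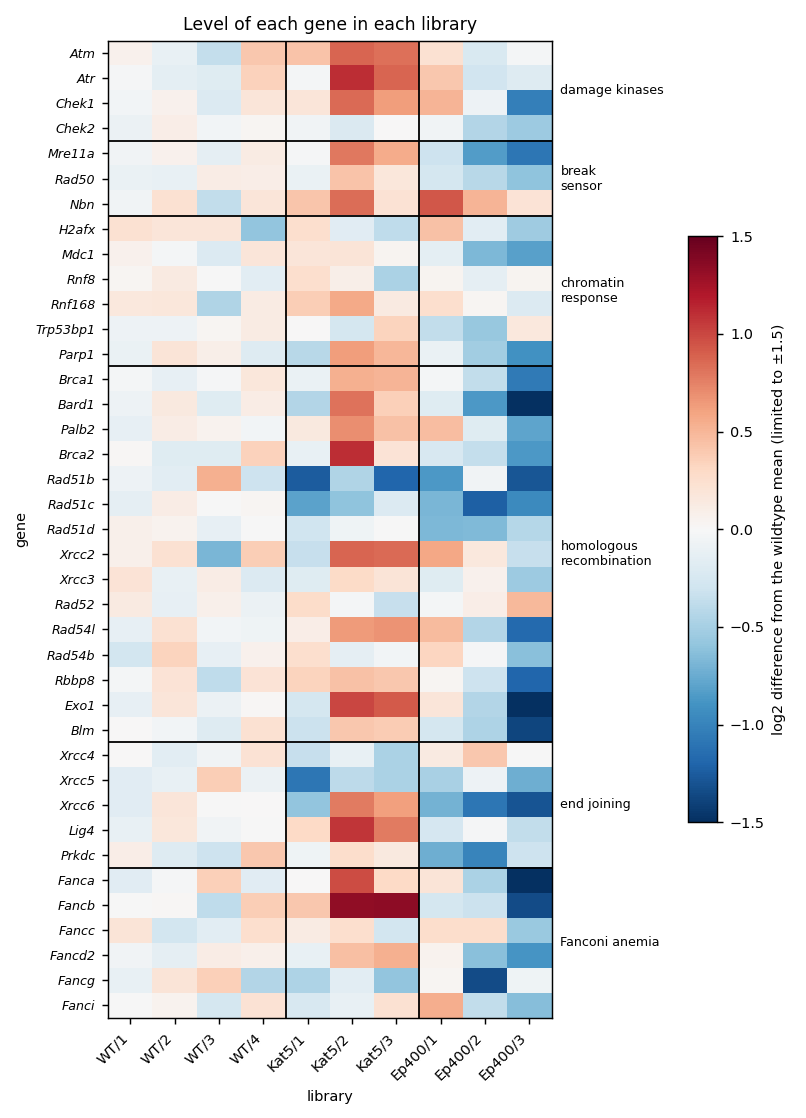
Log2 difference of each of the 39 genes (rows, by role) from the wildtype mean in each of the 10 libraries (columns), with colours limited to ±1.5. Blue marks lower and red higher levels. The column of Ep400/3 is the most blue, with 24 of 39 genes at their lowest value, and that of Kat5/2 the most red, with 20 at their highest.

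Homologous recombination was set against end joining by the median of the log2-fold changes of the 15 and the 5 genes. In Kat5 ko the medians were 0.30 and 0.062, in Ep400 ko −0.43 and −0.42, and between Ep400 ko and Kat5 ko −0.54 and −0.79. The difference between the lists was 0.24, −0.005 and 0.25, and the pooled SD of this difference between libraries of the groups compared was 0.087, 0.35 and 0.38. The Kat5 ko value was larger than this SD. The SD is of single libraries and not of medians of fold changes, so it is no test of the value. The Kat5 ko value was 0.13 with limma-voom, 0.099 with means in place of medians and 0.049 without Kat5/2. The value between the kos turned to −0.53 with both lists extended by further genes, to −0.048 with means and to −0.17 without Ep400/1. Per library, it was 0.085, 0.23, −0.030 and 0.030 in wildtype, 0.16, 0.17 and 0.22 in the Kat5 ko clones, and 0.45, −0.28 and −0.58 in the Ep400 ko clones. The Ep400 ko clones were thus spread on both sides of the wildtype libraries, and the Kat5 ko clones lay within the wildtype range.

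Within the Ep400 ko clones, the list of homologous recombination had median levels, relative to the wildtype mean on the log2 scale, of −0.033, −0.36 and −0.95 in Ep400/1 to Ep400/3, and the list of end joining of −0.48, −0.077 and −0.37. Of the 15 genes of homologous recombination, 13 were below the wildtype range in Ep400/3 and 5 in Ep400/1, whereas of the 5 genes of end joining 3 were below in Ep400/3 and 4 in Ep400/1. In the Kat5 ko clones, both lists had their lowest median in Kat5/1 (−0.18 and −0.34) and their highest in Kat5/2 (0.43 and 0.27). Ep400/3 also had the highest mitochondrial share.

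A list of 20 genes of DNA replication in S phase, such as *Mcm2* to *Mcm7* and *Pcna*, was set beside homologous recombination. Its median level was 0.10, 0.67 and 0.46 in Kat5/1 to Kat5/3, and 0.053, −0.33 and −1.53 in Ep400/1 to Ep400/3. The order of the clones was the same as for homologous recombination within each ko, and Ep400/3 stood apart in both. The damage kinases, the break sensor complex and the Fanconi anemia genes had the same order, with medians of −0.37, −0.60 and −0.76 in Ep400/3. End joining had it in Kat5 ko but not in Ep400 ko. The order is thus not particular to homologous recombination, and with so few clones it is no test. All 20 genes were tested. None was called in either ko against wildtype by edgeR or limma-voom. DESeq2 called 6 higher in Kat5 ko, but 528 genes higher in all, and 0 in Ep400 ko. There were 9 higher and 0 lower in Kat5 ko and 0 higher and 2 lower in Ep400 ko at an unadjusted p of at most 0.05 (10.7%, 11.6%, 18% and 14.2% of all genes). Between the kos, edgeR called 1 gene lower in Ep400 ko (2.83% of all genes), *Ccne1*, a cyclin of S phase entry. It was just within the threshold (edgeR adjusted p = 0.05). DESeq2, which called more genes in all than edgeR, called 5 lower and limma-voom 2, and none was called higher. At an unadjusted p of at most 0.05, 11 of the 20 were lower (16% of all genes), and in 12 all Ep400 ko clones were below all Kat5 ko clones (18% of all genes). The part of this list in the levels of the repair genes was not tested.

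**Figure D4:**
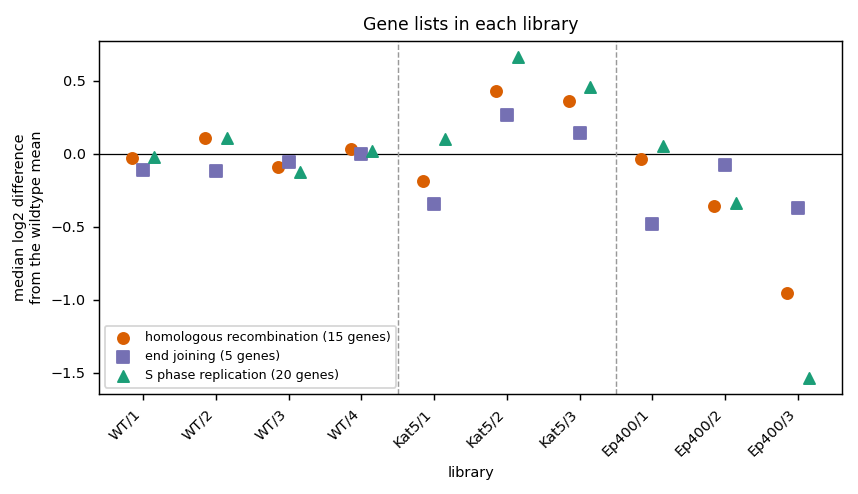
Median log2 difference from the wildtype mean (vertical axis) of the 15 genes of homologous recombination, the 5 genes of end joining and 20 genes of S phase replication in each library. Homologous recombination and replication are lowest in Ep400/3 (−0.95 and −1.53) and highest in Kat5/2 (0.43 and 0.67), while end joining is lowest in Ep400/1 (−0.48).

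Further genes of the same pathways were taken from 4 lists with 50 genes in all. In Kat5 ko, edgeR called none of them, with 16 higher and 4 lower at an unadjusted p of at most 0.05 (10.7% and 11.6% of all genes) and 5 called by DESeq2. In Ep400 ko, edgeR called 1 and it was lower, with 4 higher and 4 lower at an unadjusted p of at most 0.05 (18% and 14.2% of all genes) and 4 called by DESeq2. The same gene was the only one that edgeR called between Ep400 ko and Kat5 ko, where DESeq2 called 5. This was *Lig3*, the ligase of an alternative form of end joining and of base excision repair. It had 3264, 3385, 3650 and 3515 normalized counts in wildtype and 2036, 1710 and 1809 in the Ep400 ko clones, without overlap, and 3347, 6319 and 5457 in the Kat5 ko clones, of which Kat5/1 was within the wildtype range. The log2-fold change was −0.90 (standard error 0.12, edgeR adjusted p = 0.00478) in Ep400 ko, and −1.46 (0.26, edgeR adjusted p = 0.0313) between Ep400 ko and Kat5 ko. The median over the 50 genes was 0.16 in Kat5 ko and −0.029 in Ep400 ko. The 11 further genes of end joining had a median of 0.15 in Ep400 ko, with 6 above 0 and 5 below. At an unadjusted p of at most 0.05, 2 of these were higher and 2 lower (18% and 14.2% of all genes).

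The genes with the smallest adjusted p in the other lists did not pass the test. In Ep400 ko they were *Top3a*, which dissolves recombination intermediates (−0.74, edgeR adjusted p = 0.0654), *Brcc3*, a deubiquitinase at breaks (−0.42, 0.0953), and *Wee1*, which holds the cell cycle before mitosis (0.41, 0.122). In Kat5 ko they were *Gen1*, a resolvase (0.89, edgeR adjusted p = 0.0934), *Polq*, the polymerase of alternative end joining (0.73, 0.143), *Bre* (−0.52, 0.0994) and *Clspn*, which couples ATR to Chek1 (0.63, 0.0696).

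Of 15 targets of p53, the transcription factor that ATM and Chek2 stabilize, 2 were called in Ep400 ko and none in Kat5 ko by edgeR (13.7% and 0.625% of all genes). DESeq2 called 3 in Ep400 ko and 2 in Kat5 ko, and limma-voom 2 and 0. *Plk2*, a kinase of the centriole cycle, fell (log2-fold change −1.61, standard error 0.33, edgeR adjusted p = 0.0166) and *Phlda3*, an inhibitor of Akt signaling, rose (0.75, 0.20, edgeR adjusted p = 0.0393). *Cdkn1a*, the cell cycle inhibitor p21, had log2-fold changes of 0.011 in Kat5 ko and −0.013 in Ep400 ko, and *Mdm2*, the ligase of p53, of 0.62 and 0.11, none of which passed the test. The median of the list was 0.21 in Kat5 ko and −0.10 in Ep400 ko, and at an unadjusted p of at most 0.05 there were 3 higher and 1 lower genes in Kat5 ko (10.7% and 11.6% of all genes) and 1 higher and 2 lower in Ep400 ko (18% and 14.2%).

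Some of the 39 genes share sequence with a neighbour. Exon bases were shared with a gene on the opposite strand in 16 and on the same strand in 4 genes. The library kit keeps the strand, but whether the counting used it is not given in the sources used here. Beside *Xrcc6* and *Mre11a*, the opposite genes *Desi1* and *Ankrd49* had log2-fold changes of −0.055 and 0.29 in Ep400 ko (edgeR adjusted p = 0.832 and 0.455). Of the opposite genes tested, 1 was called, *2010111I01Rik* beside *Fancc* (13.7% of all genes in Ep400 ko and 7.05% between the kos). It was higher in Ep400 ko than in wildtype (log2-fold change 1.96, edgeR adjusted p = 0.00764) and than in Kat5 ko (2.30, edgeR adjusted p = 0.0254). Whether its reads entered the *Fancc* counts, with a log2-fold change of 0.019 in Ep400 ko, was not tested. *Rad51c*, *Rad51d* and *Fancb* share no exon bases with another gene.

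A head-to-head neighbour on the opposite strand, with its start within 1000 bases, was found for 11 of the 39 genes (28.2%), against 9.78% of 12276 protein-coding genes tested. Such pairs share a promoter region, and they are given as a description. The starts are those of the gene spans, so that of *Xrcc6* is not the start of its promoter window shown above. *Atm* and *Npat*, with starts 307 bases apart, had log2-fold changes of 0.67 and 0.37 in Kat5 ko and −0.026 and 0.068 in Ep400 ko. *Prkdc* and the replication helicase gene *Mcm4*, 466 bases apart, had −0.68 and −0.46 in Ep400 ko. *Fancb* had 1.03 and its neighbour *Mospd2* −0.19 in Kat5 ko. *Fancd2* had −0.44 and *Emc3*, 30 bases away, 0.71 in Ep400 ko, where *Emc3* passed the test (edgeR adjusted p = 0.0133). The neighbour did not pass the test in the other 10 pairs, in either ko against wildtype.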

How the data were processed

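The authors prepared stranded poly-A libraries from O9-1 cells (4 wildtype samples, 3 Kat5 ko and 3 Ep400 ko clones), sequenced paired reads and mapped them to mm10. Their processing notes name bcl2fastq 2.20, STAR 2.7.3, DESeq2 1.36.0 and R 4.2.1. The counting program, its strand setting and the annotation are not given in the sources used here. The deposited raw counts, whole reads per gene, were used. The deposited normalized tables were not.

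The 39 genes, their roles and all other lists were chosen with earlier results of these data known. The genes described in full are those called in any comparison together with *Atm*, *H2afx*, *Parp1*, *Prkdc*, *Brca1* and *Rad50*, and from each further list up to 3 genes by smallest adjusted p. Other values were picked after they had been seen.

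Samples were grouped by their labels. In R 4.3.3, each comparison was fitted with its own libraries: filterByExpr, TMM normalization and the robust quasi-likelihood test of edgeR 4.0.16, with Benjamini-Hochberg adjustment over all genes tested (13434 for Kat5, 13836 for Ep400 and 13587 between the kos). A gene was called at an adjusted p of at most 0.05. Normalized counts are raw counts divided by the effective library size and multiplied by its mean over the 10 libraries, 37633547, so that folds differ slightly from the separate fits. Log2 levels used a prior count of 2. Lengths and coordinates are from GENCODE M21, and promoters from RefSeq. The procedure was tested on simulated data. Alternatives were DESeq2 1.42.0, limma-voom (limma 3.58.1), other normalizations, no filter, 1 fit over all 10 libraries, a block for the replicate number, chromosome offsets, each library left out and, added after the data had been seen, the prior without robust estimation.

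Depth was 30968945 to 48301792 counts per library, and the chi-square of replicate pairs was 28.1 to 258 times its degrees of freedom, so none is a duplicate. The biological coefficient of variation was 0.342, 0.325 and 0.409. Wildtype samples are described as independent, and p-values measure the spread between these samples and clones. No batch was labelled. The values of 1 gene of the other pathway genes are not reported here.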

Additional observations from a re-analysis of the deposited data

Results flagged for a closer look

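A wildtype library lay far from the other 3 in 3 of the 39 genes by Dixon's test, which chance would give in about 1 of 20 genes. *H2afx* had 3571 normalized counts in WT/4 against 6105 to 6316 in the others. *Rnf168* had 1168 in WT/3 against 1747 to 1793, and *Xrcc5* had 6886 in WT/3 against 4740 to 4986. Between the kos, *Mre11a* and *Fancb* differed in the direct comparison, with log2-fold changes of −1.20 and −1.67 (edgeR adjusted p = 0.05 and 0.0488).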

How the results depend on the processing

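For Kat5 ko, the called genes of the 39, of the 50 further pathway genes and of all genes were 0, 0 and 84, and with DESeq2 3, 5 and 1382. The count over all genes was 286 without a filter, 27 in a single fit and 0 with the replicate block. With each library left out in turn the counts ranged from 0 to 11, 0 to 16 and 1 to 2654. For Ep400 ko, the 4, 1 and 1899 genes became 2 of the 39 in a single fit, 4 and 3177 (further and all genes) with DESeq2, 1, 0 and 888 with the fold and mean thresholds, and 0, 0 and 166 with the replicate block, with 1 to 7, 1 to 4 and 804 to 2020 over the libraries left out. Between the kos, the 2, 1 and 958 genes became 6, 5 and 3021 with DESeq2, 9, 11 and 3555 in a single fit and 0, 0 and 213 with the replicate block, and 0 of the 39 with DESeq2 size factors or library size alone. The further genes were 2 with limma-voom or without a filter, and all genes 1445 without a filter. Over the libraries left out the counts were 0 to 8, 0 to 4 and 3 to 2537. Homologous recombination minus end joining in Kat5 ko, 0.24, was 0.13 with limma-voom, 0.039 with the replicate block and 0.099 with means in place of medians, and 0.049 to 0.272 over the libraries left out. The value between the kos, 0.25, was −0.53 with both lists extended and −0.048 with means in place of medians, and −0.17 to 0.47 over the libraries left out.

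Directions turned for 3 genes near 0. *Prkdc* in Kat5 ko was −0.08 with chromosome offsets, and −0.027 to 0.228 over the libraries left out (−0.006 without Kat5/2). *Atm* in Ep400 ko was 0.008 with library size alone, 0.123 with the replicate block and −0.161 to 0.124 over the libraries left out (0.057 without Ep400/2). *H2afx* in Ep400 ko was −0.375 to 0.126 over the libraries left out (0.001 without WT/1), and between the kos −0.011 with limma-voom, −0.007 with the replicate block, −0.016 with chromosome offsets, and −0.288 to 0.225 over the libraries left out (−0.096 without Kat5/3 and −0.029 without Kat5/2). The causes were not tested. With the replicate block, *Xrcc6* had −1.03 in Ep400 ko (edgeR adjusted p = 0.0767). The lowest wildtype mean among the 39 genes was 163 normalized counts, for *Rnf8* (n = 4). The replicate numbers do not pair libraries, since residuals of same-numbered libraries had correlations of −0.11 to 0.246 and not every library correlated best with its own number. The block is therefore an alternative only.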
